A study of Bos taurus with 24 samples.

Results

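The genes described here encode subunits and assembly factors of the mitochondrial respiratory chain and ATP synthase, proteins of the mitochondrial ribosome and components of the mitochondrial import machinery. They were chosen by symbol, namely all Ensembl gene identifiers whose symbol in the gene name tables at hand starts with NDUF, UQCR, COX and a digit, ATP5, SDH, MRPL, MRPS, TIMM or TOMM. Of 24616 genes listed, 2803 could be given a symbol, and 41 of these fell under the rule. These are 5 genes of complex I, 3 of complex III, 4 of complex IV, 5 of ATP synthase, 12 of the large and 8 of the small mitoribosomal subunit by name, 2 of inner membrane import and 2 of outer membrane import, whereas no SDH gene of complex II had a symbol. For 37 genes the symbol stood in a table ordered by gene identifier in 1977 of 1997 rows. This table contains the lowest identifier numbers, so that no measured value is known to have chosen these genes. The other 4 genes, NDUFA13, UQCR11, MRPS6 and TIMM13, had a symbol only among rows ordered by the significance of the phenotype difference at 18 hours. They were therefore selected on that difference, are counted apart, and are given for 18 hours as a description with no test.

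Monocyte-derived macrophages (MDMs) were grown for 6 days with 5 ng/ml bovine GM-CSF from the blood of 6 lactating Holstein cows, 3 of a high and 3 of a low responder phenotype, named for their nitric oxide production after exposure to E. coli. For each cow and time point, 1 well was left as control and 1 well received E. coli inactivated with PFA, at a multiplicity of infection of 5, and cells were collected after 3 or 18 hours. The 8 conditions are the high responder control, high responder exposed, low responder control and low responder exposed wells of each time point, with 3 libraries each. Libraries are named by the number in their library code, which was 92, 93 and 94 for high responders and 91, 92 and 93 for low responders at 3 hours, and 91, 93 and 94 for high responders and 91, 92 and 94 for low responders at 18 hours. Wells with the same number, phenotype and time point were taken as those of 1 cow. The numbers name a cow within a time point only, since the letters beside a number differ between 3 and 18 hours and the labels do not tie the cows of the time points together, so that cow 94 at 3 hours and cow 94 at 18 hours need not be the same animal. Values per library are given in ascending order of the number. The cultures were derived from monocytes that attached to plastic, and no purity of the wells is used here.

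Mitochondria make ATP by passing electrons through membrane complexes and driving ATP synthase with the resulting proton gradient. Almost all of the proteins involved are encoded in the nucleus and imported through the TOM and TIM complexes, while a few core subunits are translated inside the organelle by a ribosome of its own. In macrophages that meet bacterial products, energy metabolism is known to shift from oxidative phosphorylation towards glycolysis, and nitric oxide is known to inhibit respiration.

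The libraries held between 6297190 and 20936554 expected counts in total, where an expected count is RSEM's estimate of the read pairs of a gene. Levels are given as CPM, counts scaled to the library total after TMM normalization within a time point, and levels of different genes are compared as TPM, which takes gene length into account. The macrophage marker CD68 averaged between 1418 and 2529 CPM over the 8 conditions, and CD14 between 156 and 480.4 CPM. The B cell marker CD79A averaged at most 1.09 CPM in any condition, and the epithelial marker KRT18 had no count in any library, while markers of dendritic cells, T and NK cells, neutrophils and red cells had no symbol in the tables and were not analysed here. NOS2, which encodes the inducible nitric oxide synthase, was at 3.72 ± 1.55 CPM (SD, n = 3) in high responder control wells and 1747 ± 238 CPM in exposed wells at 3 hours, and at 7.4 ± 1.39 and 1124 ± 444 CPM in low responders.

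Among the 41 genes, 40 passed the filter on low counts at both time points. COX8B, the muscle form of a complex IV subunit, had counts in 6 of 24 libraries with at most 4 counts, and was not tested. This left 36 tested genes that were not chosen by a value. Their mean TPM over the 24 libraries ranged from 15.6 for NDUFAF7 to 635 for ATP5F1A, with a median of 77.2, against a median of 16.9 for all 11759 genes tested at 18 hours. Their transcripts were also short, with a median effective length of 719 bases against 1748 bases for all genes tested.

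Averaged over the 24 libraries, the highest TPM within each group of genes belonged to NDUFA13 in complex I, UQCRB in complex III, COX17 in complex IV, ATP5F1A in ATP synthase, MRPL12 in the large and MRPS6 in the small mitoribosomal subunit, TIMM8B in inner membrane import and TOMM20 in outer membrane import. COX17, MRPS6, TIMM8B and TOMM20 were the highest of their group in each of the 8 conditions. NDUFB8 was above NDUFA13 in 3 conditions, UQCR10 or UQCR11 above UQCRB in 3, MRPL18 above MRPL12 in 2 and ATP5MC3 above ATP5F1A in 1. ATP5F1A, the alpha subunit of the soluble part of ATP synthase, was at 696, 730.2 and 713 TPM in the high responder control libraries and 709.9, 766 and 769 TPM in the low responder control libraries at 18 hours. In the exposed libraries it was at 436, 521 and 456 TPM and 556, 646 and 599 TPM, and control and exposed libraries did not overlap in TPM in either phenotype. In CPM they overlapped in both. High responders ranged from 824.9 to 915 CPM in control and from 664 to 833.5 CPM in exposed libraries. The ranges in low responders were 825.4 to 942.6 and 756.7 to 839.4 CPM. TPM divide a fixed sum among all genes of a library, so they are shares and not amounts. The summed TPM of the 37 genes not chosen by a value were 5903 ± 551 (SD, n = 3) in control and 3904 ± 465 in exposed wells of high responders at 3 hours and 5605 ± 452 and 4067 ± 477 at 18 hours. In low responders, the sums were 5984 ± 747 and 4718 ± 568 at 3 hours and 5912 ± 94.3 and 5269 ± 265 at 18 hours. The exposed libraries of high responders lay below all of their control libraries at both time points, and so did those of low responders. All fold changes are relative to TMM-normalized totals, against which the median gene changed little. When scaled by library totals alone, the median of all genes tested moved from -0.01 to -0.47 on the log2 scale in high responders at 3 hours and from -0.03 to -0.43 in low responders, and at 18 hours from -0.04 to -0.31 and from 0.00 to -0.12. In these bulk libraries, fewer cells of a type and less RNA per cell cannot be told apart.

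At 18 hours, some of these genes fell after exposure to E. coli and others rose. Calls by group of genes follow in the next paragraphs, where the shares of all genes given here also apply. Whether the groups differ in their shares of falls and rises was not tested. A gene was called when its adjusted p in edgeR's quasi-likelihood test with Benjamini-Hochberg adjustment over all genes was below 0.05. In high responders, 14 of 36 genes fell and 6 rose, with a median log2 fold change of -0.11 against -0.04 for all genes, of which 30.7% fell and 28.1% rose. In low responders, 10 of 36 fell and 8 rose, with a median of 0.00 for these genes and for all genes, of which 25.2% fell and 22.4% rose. The counts in low responders were thus near the shares of all genes, and in high responders the rises were fewer, which was not tested. All 10 genes that fell in low responders were among the 14 that fell in high responders, 5 genes rose in both phenotypes, and no gene was called in opposite directions. Among all genes, 22.2% fell in both and 19.7% rose in both, which is 88.2% of the falls and 88.2% of the rises of low responders, and 0.128% were called in opposite directions. The overlap of the falls is thus general to the genes called. Of the 8 rises in low responders, 5 were also called in high responders, a smaller share than among all genes, which was not tested. With library totals alone as scaling, 24 genes fell and 3 rose in high responders, against 45.9% and 17.2% of all genes, and 13 fell and 5 rose in low responders, against 30.9% and 15.9%.

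**Figure D1:**
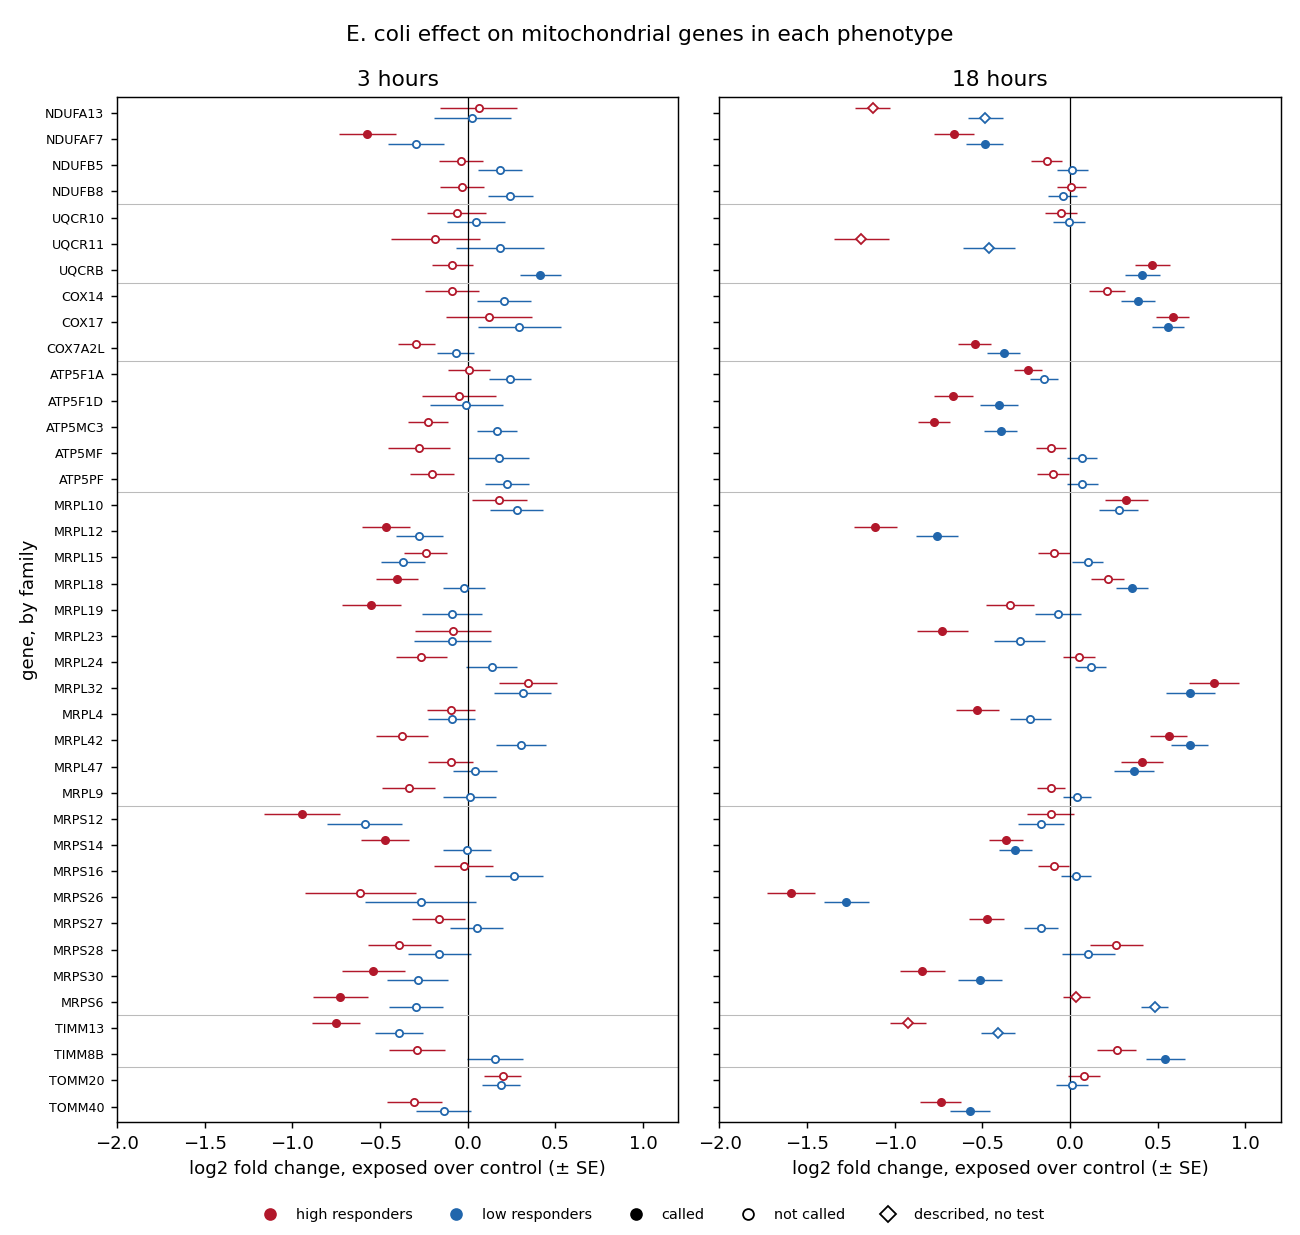
Log2 fold change of exposed over control wells (± SE, x axis) for 39 of the 40 genes that passed the count filter, by family (grey lines), in high (red) and low (blue) responders at 3 and 18 hours. Filled points were called, open circles were not, and diamonds mark the 4 genes that were chosen by their difference at 18 hours and have no test there. At 18 hours the points range from -1.59 for MRPS26 to 0.82 for MRPL32, both in high responders.

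Complex I, which takes electrons from NADH, was represented by 4 genes not chosen by a value. Of the 3 described here, 1 fell in each phenotype at 18 hours and none rose. NDUFAF7 (ENSBTAG00000001113), an assembly factor of the complex that acts as a methyltransferase, was at 19.5, 20.3 and 18.9 CPM in high responder control and 12, 14.1 and 11.1 CPM in exposed libraries. Its log2 fold change was -0.66 ± 0.11 (SE), to 0.632 of the control level, and -0.49 ± 0.11 in low responders. Control and exposed libraries of high responders did not overlap. In low responders it was at 17.7, 22.2 and 25.8 CPM and 13.7, 14.5 and 18.6 CPM, and the groups overlapped, since the exposed library of cow 94 lay above the control library of cow 91. NDUFB5 and NDUFB8, accessory subunits of the membrane arm, had log2 fold changes between -0.13 and 0.01 in both phenotypes and were not called.

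Complex III, which passes electrons from ubiquinol to cytochrome c, gave 1 rise and no fall among 2 genes in each phenotype, with medians of 0.21 and 0.20. UQCRB (ENSBTAG00000001521), a subunit that takes part in binding ubiquinone, was at 62.6, 68.1 and 59.9 CPM in high responder control and 75.4, 109 and 82.4 CPM in exposed libraries at 18 hours. Low responders were at 68.5, 76.3 and 67.5 CPM and 98.1, 90.1 and 94.6 CPM. The exposed libraries lay above every control library of the same phenotype. The log2 fold changes were 0.47 ± 0.10 in high and 0.41 ± 0.10 in low responders. The small subunit UQCR10 changed by -0.05 and 0.00 and was not called.

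Complex IV, which reduces oxygen, had 3 tested genes, of which 1 fell and 1 rose in high responders and 1 fell and 2 rose in low responders, with medians of 0.21 and 0.39. COX17 (ENSBTAG00000002182), the copper chaperone of the complex, rose from 42.3, 53.1 and 32.8 CPM to 68.2, 71.3 and 51.2 CPM in high responders, where the library of cow 94 was the lowest in both wells and its exposed value lay below the highest control value. In low responders it rose from 63.4, 50.7 and 60.4 CPM to 96.9, 81 and 79.3 CPM with no overlap. The log2 fold changes were 0.58 ± 0.09 and 0.56 ± 0.09, or 1.5 and 1.47 times the control level. COX14, an assembly factor, rose in low responders (0.39 ± 0.10) and was at 0.21 ± 0.10 without a call in high responders. COX7A2L, which links complexes III and IV into supercomplexes, fell in both phenotypes (-0.54 ± 0.09 and -0.38 ± 0.09).

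ATP synthase had 3 falls and no rise among 5 genes in high responders and 2 falls and no rise in low responders, with medians of -0.24 and -0.15. Among all genes 30.7% fell and 28.1% rose in high and 25.2% and 22.4% in low responders, and the difference from these shares was not tested. ATP5MC3 (ENSBTAG00000002944), a subunit of the membrane rotor ring, was at 198, 250.2 and 183 CPM in high responder control and 112, 160.3 and 99.8 CPM in exposed libraries. Low responders were at 184, 204 and 237 CPM and 146, 169.7 and 158 CPM. No exposed library reached a control library of its phenotype. The log2 fold changes were -0.78 ± 0.09 and -0.40 ± 0.09, with adjusted p values in edgeR's quasi-likelihood test of 6.29e-05 and 0.00543. The delta subunit ATP5F1D fell by the same test (-0.67 ± 0.11 and -0.41 ± 0.11). ATP5F1A changed by -0.24 ± 0.08 in high responders and by -0.15 ± 0.08 in low responders without a call. ATP5MF and ATP5PF, subunits of the membrane part and the peripheral stalk, were not called, with values between -0.11 and 0.07.

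The large mitoribosomal subunit had falls and rises side by side. In high responders 3 of 12 genes fell, 4 rose and 5 were not called, with a median of -0.02, and in low responders 1 fell, 4 rose and 7 were not called, with a median of 0.11. MRPL12 (ENSBTAG00000000417), a stalk protein that also binds the mitochondrial RNA polymerase, was at 84.3, 114 and 83.1 CPM in high responder control and 36.3, 54.9 and 39.9 CPM in exposed libraries. In low responders it was at 98.9, 89.8 and 91.7 CPM and 54, 68.7 and 44.7 CPM. All exposed libraries lay below all control libraries of both phenotypes. Its log2 fold changes of -1.11 ± 0.12 and -0.76 ± 0.12 correspond to 0.463 and 0.59 of the control level (adjusted p in edgeR's quasi-likelihood test 3.65e-05 and 0.000567).

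In the opposite direction, MRPL32 (ENSBTAG00000000991), a large subunit protein matured inside the organelle by the m-AAA protease, was at 12.9, 12.6 and 12.7 CPM in high responder control and 18.1, 25.7 and 24.4 CPM in exposed libraries. Low responder values were 13.1, 15.4 and 15.1 CPM and 25.8, 24.1 and 20.5 CPM. The control libraries of high responders were nearly equal, and no exposed library of either phenotype overlapped them. The log2 fold changes were 0.82 ± 0.14 and 0.68 ± 0.14, with adjusted p values in edgeR's quasi-likelihood test of 0.000799 and 0.00281. MRPL42 (ENSBTAG00000002708) rose from 18.7, 23.6 and 18.1 CPM to 25.6, 35.5 and 28.3 CPM in high responders, with log2 fold changes of 0.56 ± 0.11 and 0.68 ± 0.10. In low responders it was at 19.7, 24.1 and 20.5 CPM in control and 34.9, 33.6 and 34.8 CPM in exposed libraries. The groups did not overlap in either phenotype. MRPL47 also rose in both phenotypes (0.41 and 0.36). MRPL23 (-0.73 ± 0.15) and MRPL4 (-0.53 ± 0.12) fell and MRPL10 (0.32 ± 0.12) rose in high responders, and MRPL18 (0.35 ± 0.09) rose in low responders. The corresponding values in the other phenotype, -0.29 for MRPL23, -0.23 for MRPL4, 0.28 for MRPL10 and 0.21 for MRPL18, had the same sign and did not pass the test. MRPL15, whose expected counts were fractional in all 24 libraries and so contain read pairs shared with other sequences, was not called.

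Among the genes named for the small mitoribosomal subunit, 4 of 7 fell in high responders and 3 in low responders and none rose, with medians of -0.37 and -0.17. Of all genes, 30.7% fell and 28.1% rose in high and 25.2% and 22.4% in low responders. The group was not tested against others. MRPS26 (ENSBTAG00000000825) had the largest fall of the 36 genes, from 14.5, 18.6 and 21.6 CPM to 5.28, 5.51 and 7.29 CPM in high responders and from 23.3, 14.6 and 13.5 CPM to 8.59, 6.58 and 5.78 CPM in low responders. Exposed and control libraries were separate in both phenotypes. The log2 fold changes of -1.59 ± 0.14 and -1.28 ± 0.13 leave 0.332 and 0.413 of the control level, with adjusted p values in edgeR's quasi-likelihood test of 6.97e-06 and 3.48e-05. MRPS30 (ENSBTAG00000000084), a protein that sits in the large subunit despite its name, was at 20.8, 20.9 and 20.7 CPM in high responder control and 11.6, 13.6 and 9.6 CPM in exposed libraries, a change of -0.84 ± 0.13. In low responders it was at 19.4, 18.4 and 21.1 CPM and 14.1, 14 and 13.1 CPM, a change of -0.51 ± 0.12. Its control libraries in high responders were nearly equal, and the control libraries of both phenotypes stood above every exposed library. MRPS14 fell in both phenotypes (-0.37 ± 0.09 and -0.31 ± 0.09), and MRPS27 fell in high responders (-0.47 ± 0.10) and was at -0.16 without a call in low responders.

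For the import machinery, TOMM40 (ENSBTAG00000001781), the channel through which almost all precursors cross the outer membrane, fell from 48.5, 47.8 and 42.3 CPM to 27.8, 31.2 and 24.3 CPM in high responders and from 45.7, 47.7 and 57.9 CPM to 31.7, 38.6 and 31.2 CPM in low responders. No exposed library overlapped a control library. The log2 fold changes were -0.74 ± 0.12 and -0.57 ± 0.12. TOMM20, the receptor that recognizes presequences, was at 70.3, 69.4 and 71.1 CPM in high responder control and 72.8, 77.4 and 72.4 CPM in exposed libraries, with a log2 fold change of 0.08 ± 0.09 and no call, although the exposed libraries lay above the control libraries. In low responders it was at 64.9, 76.6 and 84.7 CPM and 75.3, 76.3 and 75 CPM with overlapping groups (0.01 ± 0.09). TIMM8B, a small chaperone of the intermembrane space, was at 24.3, 20.5 and 22.8 CPM in low responder control and 30.2, 35.8 and 31.9 CPM in exposed libraries. It rose in low responders (0.54 ± 0.11) and was at 0.27 ± 0.11 without a call in high responders, whose exposed libraries (31.2, 34.4 and 32.9 CPM) also lay above their control libraries (24.3, 29.8 and 28 CPM).

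Some of these calls were lost when a single cow was left out. In high responders at 18 hours, ATP5F1A was not called without high responder cow 91 or 94, MRPL47 without cow 91 or 93, and MRPS14 without cow 91. MRPL10 was called in 2 of 6 fits without 1 cow and lost the call without any 1 of the 3 high responder cows and without low responder cow 94. In low responders, ATP5F1D, MRPL18 and MRPL47 were not called without low responder cow 91 or 94, MRPS14 without any 1 of the low responder cows, COX14 without cow 92 and MRPS30 without cow 94. The other calls described at 18 hours were held in all 6 fits. Calls of all genes also became fewer. In high responders 3609 fell and 3304 rose. These were 3108 and 2748 without high responder cow 91, 3143 and 2909 without 93, and 3056 and 2795 without 94. In low responders 2967 fell and 2629 rose. These were 2112 and 1936 without low responder cow 91, 2642 and 2269 without 92, and 2331 and 1961 without 94. Whether the calls lost here exceed this general loss was not tested. Other settings ended calls as well. In high responders these were UQCRB, MRPL10 and MRPL47 with library totals, ATP5F1A and MRPL10 with DESeq2, MRPL10 with a mean of at least 50 counts, ATP5F1A with the length trend removed or all 24 libraries in 1 fit, and ATP5F1A, MRPL10 and MRPS14 without the cow term. In low responders these were COX14, MRPL18 and MRPL47 with library totals, MRPL47 and MRPS14 with DESeq2, ATP5F1D and MRPS14 with all 24 libraries, and COX7A2L, ATP5MC3, MRPL18 and MRPS14 without the cow term.

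**Figure D2:**
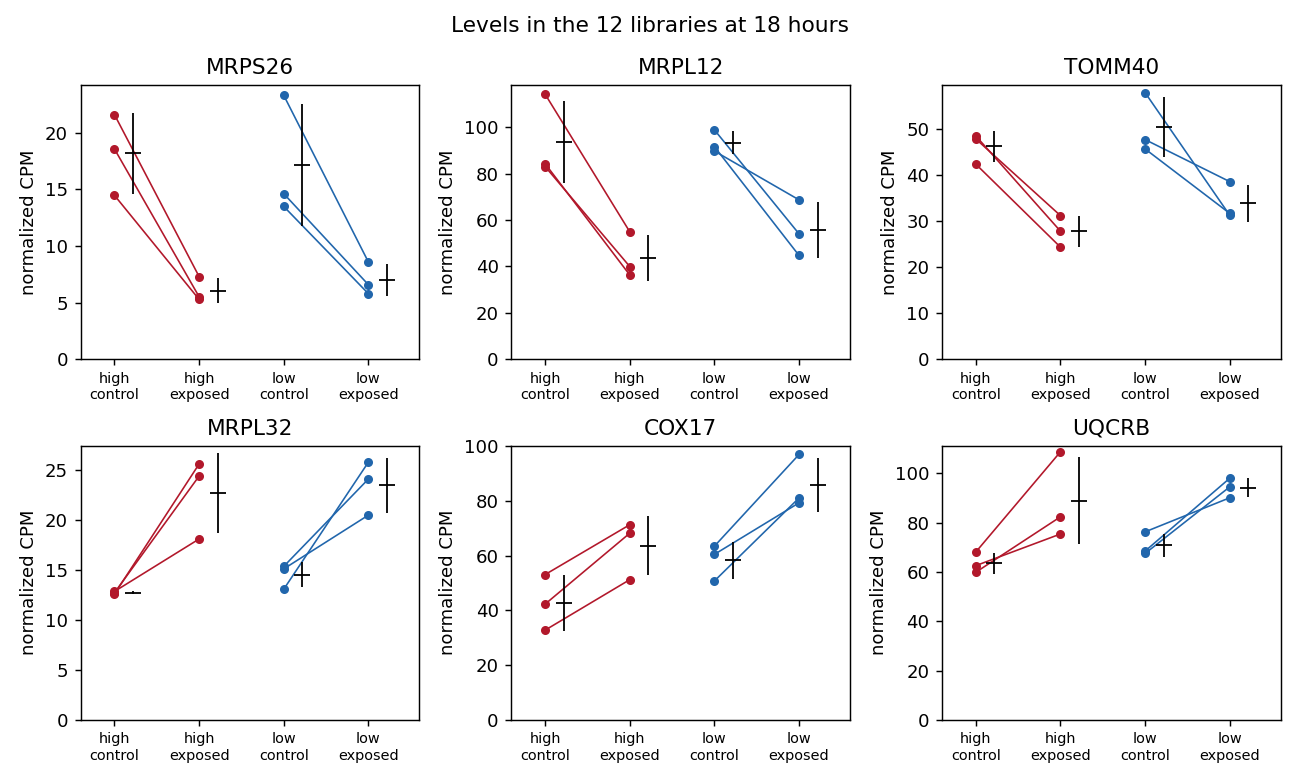
Normalized CPM of 6 genes (y axis, from 0) in the 12 libraries at 18 hours, by condition. Points are libraries, lines join the control and exposed well of a cow, and black marks show mean ± SD of 3 libraries. MRPS26, MRPL12 and TOMM40 are lower and MRPL32, COX17 and UQCRB higher in the exposed well of every cow.

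The 14 genes that fell in high responders at 18 hours had a median effective length of 1088 bases (328 to 1995), the 6 that rose 578 bases (201 to 1346) and the 16 not called 608 bases (199.8 to 1695). Median TPM were 82.5, 45.0 and 84.5. When a trend of fold change with length was removed, the calls in high responders were 12 falls and 9 rises, against 29.5% and 30% of all genes, and the median moved from -0.11 to -0.05. Low responders had 10 falls and 9 rises, against 24.8% and 23.3% of all genes, and a median of -0.07. The counts in both phenotypes were then near the shares of all genes. The part of length in these changes was not tested further.

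NDUFA13 (ENSBTAG00000007812), an accessory subunit of complex I, was at 85.5, 95.6 and 95.2 CPM in high responder control and 40.9, 46.6 and 39 CPM in exposed libraries, and at 72.1, 70.8 and 62.7 CPM and 48.6, 58.8 and 40.7 CPM in low responders. UQCR11 (ENSBTAG00000008692), a small subunit of complex III, was at 34.8, 39 and 43.8 CPM and 16, 20.7 and 14.6 CPM in high responders and at 35.8, 33.5 and 32 CPM and 24.3, 31.1 and 19 CPM in low responders. For both, the exposed libraries lay below the control libraries of the same phenotype. TIMM13 (ENSBTAG00000013623), a small chaperone of the intermembrane space, was at 46.6, 41.6 and 43.1 CPM and 22.8, 22.4 and 24.1 CPM in high responders and at 39.7, 32.1 and 35.8 CPM and 27.7, 27.6 and 25.3 CPM in low responders. MRPS6 (ENSBTAG00000012594) was at 173, 134 and 150.3 CPM and 184, 138 and 147 CPM in high responders and at 149, 168 and 142 CPM and 215, 239 and 189.7 CPM in low responders. TIMM13 was lower in all exposed than in all control libraries of the same phenotype, whereas MRPS6 was higher in all exposed libraries of low responders and overlapped in high responders. Described as log2 fold changes in high and low responders, the values were -1.13 and -0.48 for NDUFA13, -1.19 and -0.46 for UQCR11, -0.92 and -0.41 for TIMM13, and 0.03 and 0.48 for MRPS6. The rule used this contrast, so nothing is read from these values.

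At 3 hours, in high responders, 7 of 36 genes fell and none rose, with a median log2 fold change of -0.22 against -0.01 for all genes, of which 15.6% fell and 19% rose. In low responders no gene fell and 1 rose, with a median of 0.05 against -0.03 for all genes, of which 9.56% fell and 12.3% rose. This median ranged from 0.01 to 0.14 when 1 cow was left out. It was -0.04 when a trend of fold change with length was removed, and the single call was then a fall of MRPS12 in place of the rise of UQCRB. The share of falls in high responders was thus near that of all genes, while rises were absent, which was not tested. Negative log2 fold changes were found for 31 of 36 genes in high and 15 of 36 in low responders, against 50.9% and 52.9% of all genes. Scaled by library totals alone, 30 genes fell in high and 12 in low responders, against 44.7% and 34.5% of all genes, and none rose, against 10.4% and 6.76%. Relative to the median of all genes the medians were -0.21 and 0.08, against -0.20 and 0.08 with TMM. Scaling shifts all genes of a library alike, so these relative medians could hardly differ and are no check of the result.

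The falls at 3 hours in high responders were 6 genes of the mitoribosome, out of 19 tested, and NDUFAF7, where 15.6% of all genes fell. MRPS12 (ENSBTAG00000001782), a protein of the decoding centre of the small subunit, was at 7.77, 16.9 and 24.1 CPM in high responder control and 5.27, 7.83 and 11.6 CPM in exposed libraries. The groups overlapped, since the control library of cow 92 was low, but the exposed well was lower in each cow, with log2 changes of -0.54, -1.09 and -1.04. The fitted log2 fold change was -0.95 ± 0.22 (adjusted p in edgeR's quasi-likelihood test 0.00941), and -0.59 ± 0.21 without a call in low responders, which were at 18.2, 16.3 and 9.25 CPM and 12.8, 7.34 and 8.15 CPM. NDUFAF7 was at 20.6, 15.4 and 18.5 CPM and 17.5, 9.09 and 11.3 CPM in high responders, a change of -0.57 ± 0.16. MRPL19 (ENSBTAG00000002557) was at 28, 28 and 35.6 CPM and 24, 20.1 and 18.8 CPM, a change of -0.55 ± 0.17. Its exposed libraries all lay below its control libraries, while for NDUFAF7 the exposed library of cow 92 lay above the control library of cow 93. MRPL12 (-0.47 ± 0.14), MRPL18 (-0.41 ± 0.12), MRPS14 (-0.47 ± 0.14) and MRPS30 (-0.54 ± 0.18) completed the falls. MRPL18 and MRPS30 were not called with DESeq2, nor MRPS30 with the length trend removed. In the 6 fits without 1 cow, NDUFAF7 and MRPS12 were called in 5 and MRPL12 in 4. MRPL18, MRPL19 and MRPS14 were called in 2 of these fits and MRPS30 in 1. Of respiratory chain and ATP synthase genes, 1 of 14 was called in high responders, and their median was -0.07. Whether the groups of genes differ in their share of falls was not tested.

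Of the genes chosen by the 18 hours difference, 2 of 4 fell in high responders at 3 hours, where 15.6% of all genes fell. The rule did not use the libraries of 3 hours, but genes chosen by a difference in response are not a neutral sample at 3 hours, and nothing is read from this count. TIMM13 was at 30.5, 42.3 and 54.3 CPM in control and 22.7, 23.7 and 28 CPM in exposed libraries with no overlap (-0.75 ± 0.14, adjusted p in edgeR's quasi-likelihood test 0.0031), and changed by -0.39 ± 0.14 in low responders without a call. MRPS6 was at 138, 101 and 150.2 CPM and 108, 66.7 and 65.1 CPM (-0.73 ± 0.16, adjusted p in edgeR's quasi-likelihood test 0.00716), with an exposed library of cow 92 above the control library of cow 93. Both calls were held in each fit without 1 cow. The difference between the phenotypes at 3 hours was not called for any of the 4 genes, at -0.36 ± 0.19 for TIMM13, -0.43 ± 0.22 for MRPS6, -0.37 ± 0.36 for UQCR11 and 0.04 ± 0.31 for NDUFA13. In low responders, TIMM13 was at 50.1, 34.1 and 41.6 CPM and 38, 28.1 and 29.8 CPM, and MRPS6 at 130.3, 115 and 119.6 CPM and 108, 86.6 and 103 CPM. NDUFA13 (0.06 ± 0.22) and UQCR11 (-0.18 ± 0.25) were not called in high responders at 3 hours, and their changes per cow were 0.77, 0.03 and -0.55 for NDUFA13 and 0.34, 0.09 and -0.92 for UQCR11, in the order of cows 92, 93 and 94. Cow 92 was higher and cow 94 lower after E. coli in both genes. NDUFA13 was at 38.1, 98.2 and 124 CPM in control and 65.1, 100.1 and 84.6 CPM in exposed libraries of high responders, and at 95.9, 64.8 and 51.7 CPM and 87.1, 59.6 and 64.9 CPM in low responders. UQCR11 was at 24.9, 47.9 and 74.3 CPM and 31.6, 51 and 39.1 CPM in high and at 47.3, 35.7 and 21.5 CPM and 48.5, 31 and 34.9 CPM in low responders. Control and exposed libraries overlapped in both phenotypes for these 2 genes.

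Of the genes with the highest mean TPM in the other groups, most were not called at 3 hours. COX17 was at 18, 30.1 and 67.7 CPM in high responder control and 30.6, 40.3 and 41.2 CPM in exposed libraries, and at 62, 38.6 and 50.8 CPM and 66.6, 50.8 and 66.7 CPM in low responders. The control library of cow 94 was the highest of its condition and the only one in high responders that stood above its exposed well. MRPL12, which fell in high responders, was at 48, 73.9 and 119.5 CPM and 45.1, 46.5 and 78.2 CPM there, and at 104, 83.7 and 69.7 CPM and 89.6, 62.9 and 60.5 CPM in low responders. It was lower in the exposed well of every cow, but control and exposed libraries overlapped in both phenotypes. ATP5F1A was at 868, 785 and 915 CPM and 980.1, 847 and 762 CPM in high responders with overlap, and at 802, 719 and 822 CPM and 903, 882 and 986 CPM in low responders without overlap. TOMM20 was at 88.4, 71.3 and 91.9 CPM and 102, 88.2 and 97.4 CPM in high and 104, 84.1 and 77.8 CPM and 109.9, 93.8 and 97.1 CPM in low responders, being higher in the exposed well of every cow. TIMM8B was at 23.4, 28.4 and 33 CPM and 22.6, 24.3 and 22.4 CPM in high and 34.7, 25.7 and 18.5 CPM and 36.7, 23.9 and 25.7 CPM in low responders, with overlap in low responders and in high responders.

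The single rise at 3 hours was UQCRB in low responders, from 70.0, 62.9 and 65.8 CPM to 89.5, 85.2 and 90.1 CPM with no overlap (0.42 ± 0.12, adjusted p in edgeR's quasi-likelihood test 0.0351). In high responders UQCRB was at 80.9, 62.5 and 79.6 CPM and 79.6, 66.9 and 63.2 CPM with overlapping groups (-0.09 ± 0.12). Under scaling by library totals the value in low responders was 0.01, and the call was lost without high responder cow 92 and without any 1 of the low responder cows. Without high responder cow 94, 5 genes were called in low responders (UQCRB, COX17 and ATP5F1A higher, MRPL15 and MRPS12 lower), against 20.1% of all genes higher and 16.7% lower.

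The calls at 3 hours varied with the cows included, and so did those of all genes. Without high responder cow 93, none of the 7 genes was called, and 8.04% of all genes fell. When the cow term was left out of the fit, none of the 7 was called either, while 701 of 11264 genes fell in high responders. Without low responder cow 91 there were 2 calls (NDUFAF7 and MRPS12), with 12.1% of all genes lower, and without low responder cow 92 there were 3 (MRPL12, NDUFAF7 and MRPS12), with 12.7% lower. The median change of the 36 genes was -0.01, -0.07 and -0.50 in high responder cows 92, 93 and 94, and -0.04, 0.05 and 0.23 in low responder cows 91, 92 and 93, while the median of all genes lay between -0.04 and 0.02 in each cow. Cow 94 stood apart, with 33 of 36 genes lower in its exposed well, and its control library was above the mean of its condition for 34 of 36 genes, by a median of 0.27 on the log2 scale. Its exposed library was above the mean of its condition by a median of 0.04. Without this cow the median of high responders was -0.09 and there were 6 calls, 5 falls (MRPS30, MRPL12, NDUFAF7, MRPL18 and MRPS12) and a rise of COX17, against 20.4% of all genes lower and 22.2% higher. Among low responders the control library of cow 91 was above the mean of its condition by a median of 0.27, and in the exposed well of the same cow by 0.14. At 18 hours, where the same number need not stand for the same cow, the medians spanned a narrower range, with -0.17, -0.10 and -0.20 in high responder cows 91, 93 and 94 and 0.04, 0.04 and -0.11 in low responder cows 91, 92 and 94.

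**Figure D3:**
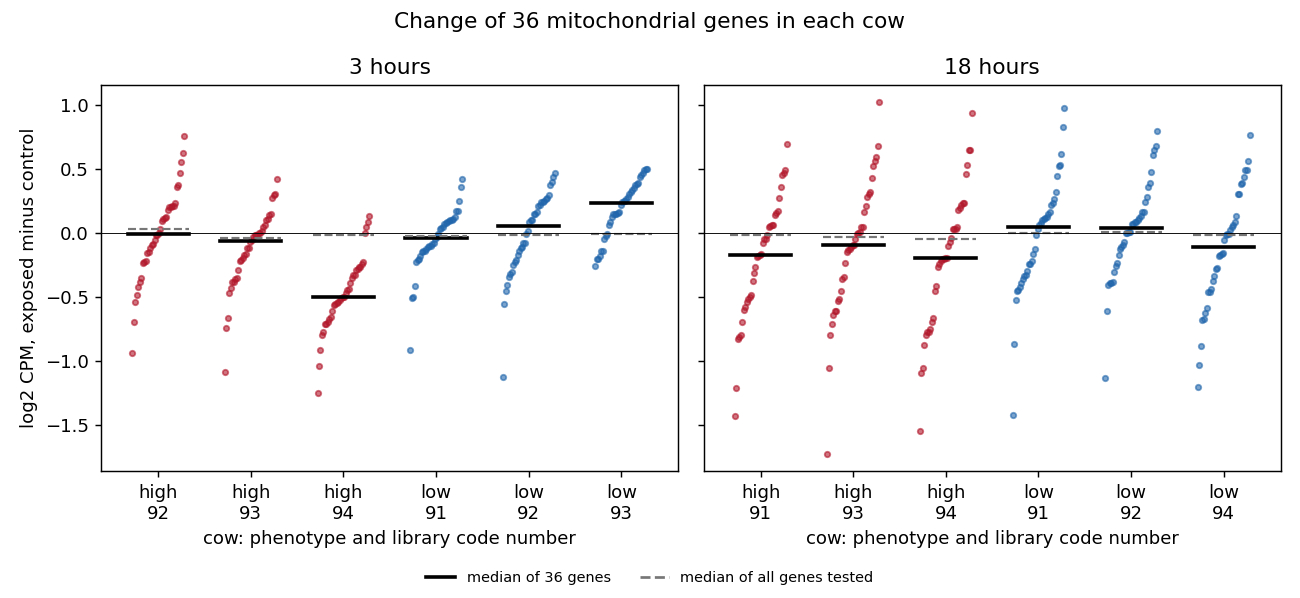
Log2 CPM in the exposed minus the control well (y axis) for each of 36 genes (points, sorted within a cow) in each cow (x axis) at 3 and 18 hours, with the median of these genes (black) and of all genes tested (grey, dashed). At 3 hours high responder cow 94 has a median of -0.50, and the other 5 cows lie between -0.07 and 0.23.

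The effect of E. coli was also compared between the time points, in 1 fit of all 24 libraries. In high responders, the change from 3 to 18 hours was called lower for 2 of 36 genes and higher for 7, against 17.4% lower and 13.4% higher of all genes. In low responders, 2 were lower and 1 higher, against 11.5% and 6.37% of all genes. MRPL42 changed most among those called, by 1.00 ± 0.17 in high responders in this fit (adjusted p in edgeR's quasi-likelihood test 0.000721). In the separate fits of the time points its effect was -0.37 at 3 hours and 0.56 at 18 hours. MRPS12, low at 3 hours, was at 17.5, 17.4 and 19.8 CPM in control and 14.5, 16.3 and 20.2 CPM in exposed wells of high responders at 18 hours, and its effect was higher by 0.91 ± 0.25. The effect on UQCRB (0.62 ± 0.16), MRPL18 (0.68 ± 0.14), MRPS28 (0.72 ± 0.24), TIMM8B (0.62 ± 0.20) and MRPL47 (0.57 ± 0.17) was also higher at 18 hours, and that on MRPL12 (-0.58 ± 0.19) and ATP5MC3 (-0.49 ± 0.15) lower. In low responders, the effect on ATP5MC3 (-0.53 ± 0.15) was lower and that on MRPL15 (0.50 ± 0.14) higher. With library totals as scaling, the change of ATP5MC3 was not called in either phenotype and that of MRPL12 not in high responders. The change of MRPL12 was also not called with offsets for effective length, and that of MRPS28 not with DESeq2. The labels do not state which wells of the time points share a cow. When cows were matched by the letters of the library code, 4 changes in high responders (MRPL18, MRPS28, UQCRB and MRPL42, all higher) and none in low responders were called, against 13.9% lower and 11% higher of all genes in high and 9.13% and 4.19% in low responders. Without high responder 18 hours cow 94 there were 4 calls and without cow 93 there were 5, while the share of all genes called went from 30.8% to 24% and 23.7%. In low responders no change was called without 18 hours cow 91 or 94 or 3 hours cow 92, 1 without 3 hours cow 93, and 6 without high responder 3 hours cow 94. The share of all genes called in low responders was 17.9%, and in these fits 11.5%, 11.8%, 11.6%, 12.3% and 26.2%. The median change of the 36 genes in high responders was 0.14, and -0.04 without high responder 3 hours cow 94, and that in low responders was -0.11, and -0.06 without low responder 18 hours cow 94 or 3 hours cow 93. With a length trend removed, the median change in low responders was -0.05.

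The central comparison of the study is whether high and low responders differ in their response to E. coli. None of the 36 genes was called in the difference between the phenotypes at 3 hours, against 0.178% of all genes, or at 18 hours, against 1.64% of all genes. DESeq2 also called none of them at either time point, against 1.67% and 3.61% of all genes. At an unadjusted p below 0.05 there were 6 of 36 genes at 3 hours (12.7% of all genes) and 2 of 36 at 18 hours (17.6% of all genes). The direction was uneven. At 3 hours, 32 of 36 differences were below 0, that is, lower in high responders, with a median of -0.24 against 0.03 for all genes, of which 46.4% were below 0. At 18 hours, 26 of 36 were below 0 with a median of -0.15 against -0.02 for all genes, of which 52.4% were below 0. Without high responder cow 94, the median at 3 hours was -0.14, and over the fits without 1 cow it ranged from -0.35 to -0.14. At 18 hours that range was -0.17 to -0.12. With library totals as scaling, the medians relative to all genes were -0.28 and -0.13, the same as with TMM. They could hardly differ, since scaling shifts all genes of a library alike, so this is no check of the result. When a trend of fold change with length was removed, the medians were -0.14 and -0.06.

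By group, the median difference at 3 hours was -0.25 for complex I, -0.31 for complex III, -0.23 for complex IV, -0.39 for ATP synthase, -0.17 for the large and -0.29 for the small mitoribosomal subunit, -0.44 for TIMM8B and -0.08 for outer membrane import. At 18 hours the medians were -0.05, 0.00, -0.16, -0.18, -0.14, -0.13, -0.28 and -0.05 in the same order. All 5 ATP synthase genes had a negative difference at both time points, from -0.45 to -0.04 at 3 hours and from -0.38 to -0.09 at 18 hours.

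Cow by cow, the changes of all high responder cows lay below those of all low responder cows for 7 of 36 genes at 3 hours (ATP5PF, COX7A2L, MRPS14, MRPL18, UQCRB, MRPL42 and ATP5MC3), against 8.95% of all genes, and above them for none, against 10.9%. At 18 hours this was the case for 6 genes (MRPL12, MRPL9, MRPS26, MRPL15, MRPS27 and ATP5MC3), against 11.4% of all genes, and the reverse for none, against 11.3%. MRPL42 had the widest difference at 3 hours, with changes of -0.39, -0.18 and -0.54 in high responder cows 92, 93 and 94 and 0.42, 0.14 and 0.33 in low responder cows 91, 92 and 93. The fitted difference was -0.68 ± 0.21, but its adjusted p in edgeR's quasi-likelihood test was 0.254. ATP5MC3 was the single gene in both sets. The share of all genes in both sets was not determined, so nothing is read from this overlap. ATP5MC3 changed by -0.15, -0.07 and -0.45 in high and 0.04, 0.24 and 0.22 in low responder cows at 3 hours, and by -0.81, -0.64 and -0.88 and -0.34, -0.26 and -0.59 at 18 hours. Its fitted differences were -0.39 ± 0.16 and -0.38 ± 0.13, with adjusted p values in edgeR's quasi-likelihood test of 0.371 and 0.177. At 18 hours all cows of both phenotypes fell, and the falls were larger in each high responder cow. MRPL23 had the largest difference at 18 hours, -0.44 ± 0.21, and was not called.

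**Figure D4:**
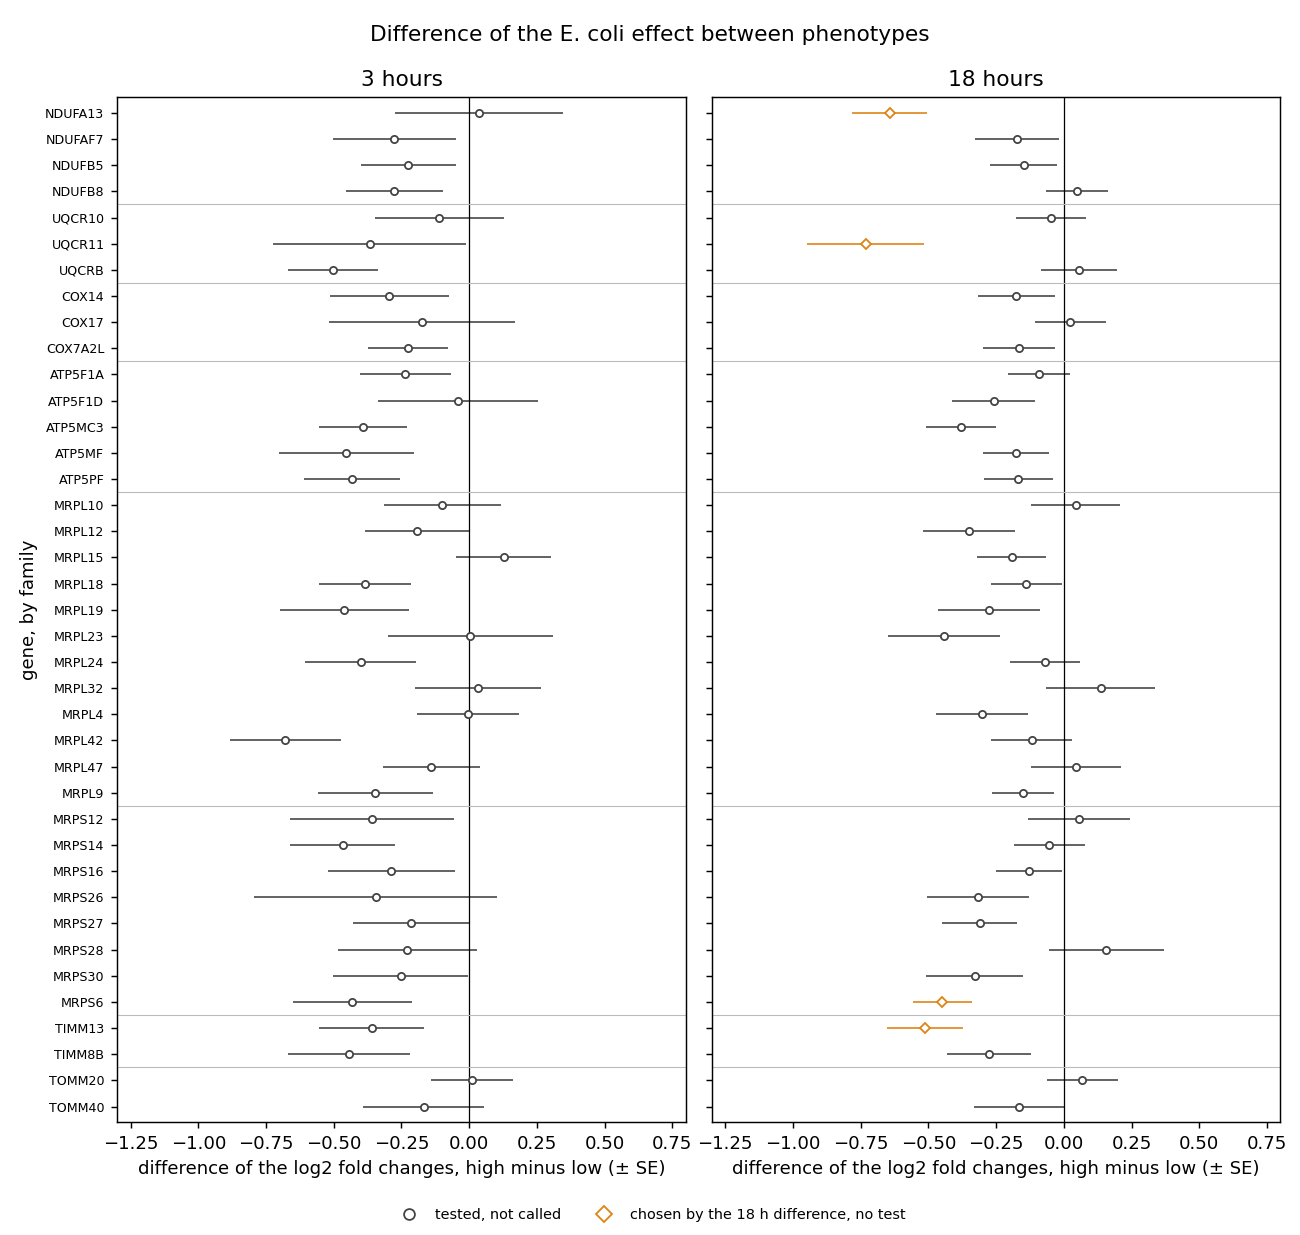
Difference of the log2 fold changes between high and low responders (± SE, x axis) for 39 of the 40 genes that passed the count filter, by family (grey lines), at 3 and 18 hours. Circles are 35 of the 36 tested genes, of which most lie below 0 at both time points and none was called, and diamonds mark the 4 genes chosen by the 18 hours difference, which have no test at 18 hours.

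The wells were also compared separately. In control wells, none of the 36 genes was called between high and low responders at 3 hours (0.00906% of all genes were called) or 18 hours (0.15%), and 17 and 24 of 36 differences were negative, with medians of 0.04 and -0.06, against 48.6% and 49% of all genes and medians of 0.01 at both time points. The median at 3 hours was -0.17 without high responder cow 94, -0.07 without low responder cow 93, and between -0.001 and 0.12 without any other 1 cow, and that at 18 hours ranged from -0.12 without high responder cow 93 to -0.02 without high responder cow 91. At an unadjusted p below 0.05 there were 0 and 4 genes, against 7.85% and 21.7% of all genes, and DESeq2 called none and 1 (MRPL10, lower in high responders), against 2.18% and 8.87%. In exposed wells, no gene was called at 3 hours (0.0839% of all genes) or 18 hours (0.0446%). Here 33 and 32 of 36 differences were negative, with medians of -0.23 at both time points, against 47.5% and 52.8% of all genes and medians of 0.02 and -0.02. At each time point 6 genes had an unadjusted p below 0.05, against 12.8% and 18.2% of all genes. DESeq2 called 1 gene at 3 hours (MRPL42, lower in high responders) and none at 18 hours, against 2.64% and 6.89% of all genes. The median in exposed wells at 3 hours ranged from -0.36 without low responder cow 92 to -0.14 without low responder cow 91 and was -0.25 without high responder cow 94, and at 18 hours it was -0.14 without high responder cow 91 or 94 and -0.30 without cow 93. With a length trend removed, the medians in exposed wells were -0.15 at 3 hours and -0.17 at 18 hours. MRPL42 in the exposed wells at 3 hours was at 13.6, 13.5 and 14.4 CPM in high and 23.9, 21.7 and 26.5 CPM in low responders, with no overlap, while the control wells were at 17.9, 15.3 and 21 and 17.8, 19.6 and 21 CPM and overlapped. Between 3 and 18 hours of culture without E. coli no gene was called, against 0.0259% of all genes, although 31 of 36 changes were negative, against 48.1% of all genes, with a median of -0.10 against 0.01 for all genes. The median of the 36 genes was -0.02 without high responder 3 hours cow 94 and -0.17 without high responder 3 hours cow 92. It was -0.05 when a trend of fold change with length was removed. In this comparison 7 genes had an unadjusted p below 0.05, against 9.24% of all genes. DESeq2 called 2 of the 36 genes lower at 18 hours, TOMM20 and COX7A2L, against 1.23% of all genes called in either direction.

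Other mitochondrial and metabolic genes were described from lists of which a part had a symbol. Some of them, as named here, had it only through the phenotype difference at 18 hours and so are not a neutral sample of a list at 3 hours either, where 15.6% of all genes fell and 19% rose in high and 9.56% and 12.3% in low responders. At 18 hours, genes chosen in this way are left out of the counts, and the shares of all genes were 30.7% and 28.1% in high and 25.2% and 22.4% in low responders. Of the import motor, processing and folding list, 3 of 16 genes had one. HSPA9, the matrix Hsp70 that pulls precursors inward and 1 of those chosen by that difference, rose at 3 hours in both phenotypes (0.91 ± 0.10 and 0.66 ± 0.10), and LONP1 and PMPCA were not called there. At 18 hours PMPCA, a subunit of the presequence protease, fell in high responders (-0.30 ± 0.10). Of 20 genes for mitochondrial gene expression 6 were found, and at 3 hours 3 rose and 1 fell in high and 2 rose and 1 fell in low responders, with medians of 0.04 and 0.17. Of the 4 not chosen by the difference, 2 rose in high and 1 in low responders and none fell. Among the 2 chosen, TSFM, an elongation factor of mitochondrial translation, rose (1.61 ± 0.17 and 0.92 ± 0.17), and MTERF2, a factor of the mitochondrial transcription termination family, fell (-2.43 ± 0.30 and -1.54 ± 0.29). MARS2, the mitochondrial methionyl tRNA synthetase, rose in high responders at 3 hours (0.64 ± 0.17) and in both phenotypes at 18 hours (0.92 ± 0.14 and 0.75 ± 0.14). At 18 hours, where 4 of these genes were not chosen by a value, 3 rose in high and 2 in low responders and none fell, with medians of 0.40 and 0.24. DLD and IDH3G, the 2 of 17 genes found of pyruvate dehydrogenase and the citric acid cycle, were not called at any time point. Of the mitochondrial genome 1 of 13 genes was found, MT-ND6, also chosen by that difference, which rose in high responders at 3 hours (0.73 ± 0.21) and was at -0.02 ± 0.23 in low responders.

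Of 13 glycolysis and glucose uptake genes found of 20, 3 rose and 1 fell in each phenotype at 3 hours, with medians of 0.02 and 0.07. All 4 of these calls were among the 9 genes chosen by the 18 hours difference, and none of the other 4 was called. The rises were in the glucose transporters SLC2A3 (3.57 ± 0.20 and 2.63 ± 0.19) and SLC2A1 (0.73 ± 0.14 and 0.45 ± 0.14) and in PFKFB3 (2.41 ± 0.17 and 1.56 ± 0.17), which makes an activator of phosphofructokinase. The lactate transporter SLC16A3 fell (-0.98 ± 0.16 and -0.95 ± 0.17). At 18 hours, 4 of these genes had not been chosen by a value, of which 2 fell and 1 rose in high responders and 3 fell in low responders, with medians of -0.61 and -0.51. PFKP, a phosphofructokinase, had the largest fall (-1.35 ± 0.10 and -1.09 ± 0.10). Among 13 genes of cytosolic ribosomal proteins, none was called in high and 1 rose in low responders at 3 hours (RPL5, 0.40 ± 0.12), with medians of 0.10 and 0.38. At 18 hours 1 of the 10 not chosen by the difference fell and 3 rose in high responders, against 30.7% and 28.1% of all genes, and none fell and 2 rose in low responders, against 25.2% and 22.4%, with medians of -0.15 and 0.09. RPL21 (0.40 ± 0.08 and 0.34 ± 0.08) and RPS12 (0.29 ± 0.08 and 0.37 ± 0.08) rose in both. All 7 genes found of 10 in the macrophage response list rose at 3 hours in both phenotypes, with medians of 6.49 and 4.75, but 6 of them, all except IL1B, were chosen by the 18 hours difference. Among the 7 were NOS2 (8.83 ± 0.28 and 7.19 ± 0.26), IL1B (6.98 ± 0.59 and 7.20 ± 0.58) and IL6 (6.49 ± 0.37 and 7.08 ± 0.39). None of the 3 macrophage markers was called at 3 hours. CD68 rose at 18 hours (0.62 ± 0.09 and 0.60 ± 0.09), and CD14 and AIF1, which were chosen by the 18 hours difference, were at -0.42 and -1.08 and at -0.65 and -1.25. The part of these other changes in the falls and rises described above was not tested.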

How the data were processed

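The members and gene lists were chosen with earlier results of these data known. Stranded mRNA libraries were sequenced in pairs. The authors trimmed reads with Trimmomatic, checked them with FastQC (version 0.11.5), aligned them with STAR to UMD 3.1 with Ensembl release 94, and estimated expected counts and TPM per gene with RSEM, without pooling replicates. Both were deposited per library and the effective lengths beside them were used here. Expected counts, as deposited by the authors, were rounded to whole numbers. Genes with low counts were removed (filterByExpr), and edgeR (version 4.0.16, R version 4.3.3) was fitted with TMM normalization and its quasi-likelihood test, with a term for each cow and 1 E. coli effect per phenotype, in the 12 libraries of a time point. Comparisons of wells had the phenotype as the only term, and changes with time were fitted in all 24 libraries. P values were adjusted over all genes tested (Benjamini-Hochberg) and a gene was called below 0.05. The SE of a log2 fold change was derived from this test, as its absolute value divided by the square root of the F statistic. CPM were computed here from the deposited counts. Wells with the same number and phenotype at a time point were treated as 1 cow. Their deviations from the condition means correlated with r between 0.327 and 0.732 in 12 pairs of libraries that share a number, against -0.568 to 0.0052 in 24 that do not. Deviations within a condition of 3 libraries add up to 0, which pushes pairs of unlike numbers below 0. Some numbers occur in both phenotypes, so a shared cow and another effect tied to the number cannot be told apart by these correlations.

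Totals were 6297190 to 20936554 expected counts per library. Each condition had 3 libraries, and an exact permutation test of 3 against 3 cannot fall below p = 0.1, so single values were tested by the fit across all genes. Alternatives were other size factors, library totals alone, filters, DESeq2 (version 1.42.0), length corrections, fits without the cow term or with all 24 libraries, a minimum fold of 1.5, an adjusted p below 0.1 and leaving out each cow. For the difference between phenotypes, a fit with an E. coli effect that could differ by library code number was added. The scripts were tested on simulated data. A single gene of the rule is counted but not reported here. Any other gene of the rule could be named. Values per library are given for the 3 largest called falls and rises of each E. coli effect, the genes chosen by the 18 hours difference and the gene with the highest TPM of each family, and a few others named in the text were chosen after their values were seen. Symbols came from copies of the study's gene name tables, whose comparison values were not used. Expected counts of MRPL15 in 24 libraries and of NDUFB8 in 2 libraries were fractional.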

Additional observations from a re-analysis of the deposited data

Results flagged for a closer look

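The effect of E. coli differed between 3 and 18 hours, by the test of the change itself (edgeR's quasi-likelihood test with Benjamini-Hochberg adjustment), for 9 genes in high responders and for the 2 genes in low responders described here. Of all genes, 30.8% were called for this change in high and 17.9% in low responders. In high responders the log2 effect was higher at 18 hours by 0.62 for UQCRB, 0.68 for MRPL18, 1.00 for MRPL42, 0.57 for MRPL47, 0.91 for MRPS12, 0.72 for MRPS28 and 0.62 for TIMM8B. The change was -0.49 for ATP5MC3 and -0.58 for MRPL12. In low responders the change was -0.53 for ATP5MC3 and 0.50 for MRPL15. UQCRB, MRPL18 and MRPL42 in high responders were called in all 12 fits without 1 cow. The labels do not state which wells share a cow across the time points, and with cows matched by the letters of the library code 4 of the changes in high responders and 0 in low responders were called. Of all genes, 13.9% were then lower and 11% higher in high and 9.13% and 4.19% in low responders.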

How the results depend on the processing

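No called gene changed sign. Leaving out 1 cow turned the sign of the median over the 36 genes for control wells at 3 hours (-0.17 to 0.12), the effect in low responders at 18 hours (-0.02 to 0.03) and the change in high responders (-0.04 to 0.24). Other settings turned the median in low responders at 3 and 18 hours and that of the change in low responders, as given here and in the comparisons, and at 18 hours also a mean of at least 50 counts (-0.01) and offsets for effective length (-0.01). Of the alternative values for counts and medians over the 36 genes, 390 stayed within 1.5 times the count or 1 SD of the median and 48 did not, and of those for single genes 895 kept their call and 197 lost it. With a fold change above 1.5 in addition, calls were 1 (high responders, 3 hours), 0 (low, 3 hours), 9 (high, 18 hours), 4 (low, 18 hours) and 0 (change with time in low responders). With an adjusted p below 0.1 they were 3 in low responders at 3 hours, 1 in control wells at 18 hours and 6 for the change in low responders. The shares of all genes at either threshold are not given here, so nothing is read from these counts about the 36 genes. Scaled by library totals alone, calls were 30 and 12 at 3 hours in high and low responders and 6 for the change in low responders, and medians were -0.67 and -0.35 at 3 hours, -0.38 and -0.12 at 18 hours, -0.30 for the difference and -0.40 for exposed wells at 18 hours, and 0.13 for the change in low responders. For this change in low responders, 887 of 11905 genes were lower and 1640 higher with that scaling. Without the replicate block (the cow term), calls were 0 in both phenotypes at 3 hours, 2 for the change in high and 0 in low responders. Of 11264 genes at 3 hours, 701 then fell and 1170 rose in high and 235 and 599 in low responders. For the change, 877 of 11905 genes were lower and 646 higher in high and 354 and 129 in low responders. With all 24 libraries in 1 fit, calls were 13 in high and 3 in low responders at 3 hours. Of 11905 genes in that fit, 2667 fell and 2347 rose in high and 1622 and 1716 in low responders. Without a filter on low counts there were 0 calls in low responders at 3 hours, while 1066 of 15245 genes fell and 1350 rose. With a length trend removed, the median of the E. coli effect in high responders at 18 hours was -0.048 and 6 changes in low responders were called. Among all 11905 genes, 1589 of these changes were then lower and 743 higher. With cows matched by letter, 4 and 0 changes were called in high and low responders. The shares of all genes were then 13.9% lower and 11% higher in high and 9.13% and 4.19% in low responders. DESeq2 called 1 gene in control wells at 18 hours, 1 in exposed wells at 3 hours and 2 in control wells between time points. Leaving out 1 cow gave 0 to 6 calls in high and 0 to 5 in low responders at 3 hours, 4 to 12 changes in high and 0 to 6 in low responders, and a median of -0.36 to -0.14 in exposed wells at 3 hours. The calls of all genes varied over these fits as well. The 12 changes came without high responder 3 hours cow 94, where 2452 of 12059 genes were lower and 2060 higher in high responders. The causes were not tested beyond the construction of each alternative. With 3 cows per phenotype, no difference between phenotypes was called among these genes under any of these alternatives for the E. coli effect.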
